A study of Mus musculus with 28 samples.

Results

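The regions described here are strong Ldb1 binding sites of mouse mature olfactory sensory neurons at which no Ldb1 peak was called once the neurons had lost Lhx2. These regions, the members of the set, are 1320 of the 22789 Ldb1 regions of control neurons. Peaks that overlapped between at least 2 of the 3 control lists made a region, and each region's rank is its score percentile averaged over these lists. Of the 2279 regions in the highest 10%, 1394 had no peak in either of the 2 lists from Lhx2 knockout (KO) neurons, and 1320 of those had a peak in both lists from neurons that express the receptor Olfr1507. The regions were thus chosen by the presence and scores of peaks in the 7 Ldb1 lists, and what these lists show of them is a description, with no test. Of all control regions 86.8% had no KO peak and 16.2% had no KO peak with a peak in both Olfr1507 lists. In the highest 10% these shares were 61.2% and 57.9%.

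The study mapped sites bound by Ldb1, Rad21 and CTCF by chromatin immunoprecipitation and sequencing (ChIP-seq) of formaldehyde-fixed cells sorted from the main olfactory epithelium. KO neurons (2 libraries) carried OMP-IRES-Cre, Lhx2fl/fl and Rosa-CAG-tdtom+/fl. Olfr1507+ cells (2 libraries) carried M28-IRES-GFP, and control neurons (3 Ldb1, 2 Rad21 and 2 CTCF libraries) carried OMP-IRES-GFP. The same Ldb1 antibody is labelled for all 7 Ldb1 libraries. In the KO, Cre is driven from Omp, a gene that olfactory neurons switch on late, so the earlier stages still had Lhx2. KO and control neurons also differed in their fluorescent reporter, and the labels give neither the age of the animals nor whether libraries came from separate animals.

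Ldb1 binds no DNA of its own. It is an adaptor that is held on chromatin by LIM-domain proteins, among them the LIM-homeodomain factor Lhx2, and it can join distant sites by binding to itself. Lhx2 is needed for the formation of olfactory neurons and, with Ebf factors, occupies enhancers of odorant receptor (OR) genes. Rad21 is a subunit of cohesin, the ring that extrudes chromatin loops, and CTCF is the DNA-binding protein at which cohesin often halts.

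The lists differed in length, from 542 and 4290 peaks in the KO to 5095 and 21250 in Olfr1507+ cells and 16067 to 28879 in control neurons, and they carry no read numbers, so depth is unknown. A missing peak therefore means that none was called. A peak list holds no expression, but the labelled cell type can be set against where Ldb1 lay in control neurons. Of the mature neuron markers, Adcy3 had 10 control regions within 10 kb, Gnal 12, Stoml3 5, Omp 2, Cnga2 2 and Gng13 1. Of the immature neuron markers, Gap43 had 3 and Gng8 2. The supporting-cell markers Cyp2g1, Cyp1a2 and Ermn and the basal-cell markers Krt14 and Trp63 had 0, and Krt5 had 1. In the longer lists, 2 of 10 sustentacular and gland genes and 4 of 9 basal and progenitor genes had a control region within 10 kb. So did 10 of 16 housekeeping, 11 of 12 immature neuron and 18 of 19 olfactory transduction genes. Of all protein-coding genes 39.7% did, so a nearby control region does not by itself mark mature neurons.

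Sequence could be read only for the few regions that touch an annotated gene start. Of the 1272 members on chromosomes in the RefSeq promoter table, 17 (1.34%, 95% Wilson interval 0.836% to 2.13%) overlapped a window from 250 bases before to 50 bases after a start, against 1.87% of the regions in the highest 10% and 7.04% of all control regions. The 17 windows belonged to 11 long noncoding RNAs and 6 protein-coding genes. Among windows at all control regions 16.1% were of long noncoding RNAs, and among all annotated windows 35.3% were. Of the 17 windows, 5 held TAATTA, the core that LIM-homeodomain factors recognise, searched on both strands. The share of all 32817 promoters with TAATTA was 5.3%, and of those at control regions 7.26%. Windows at strong regions with a KO peak held it in 8 of 23, so the members and these regions had similar shares, with wide intervals (13.3% to 53.1% and 18.8% to 55.1%). The palindromic Ebf core, searched with any letters at its centre, was in 1 of the 17 (0.905% of all promoters, 1.93% of those at control regions and 1 of 23 at strong regions with a KO peak). TAATTG, a related homeodomain core searched after the sequences had been seen, was in 7 of the 17 (8% of all promoters, 13.8% of those at control regions and 7 of 23 at strong regions with a KO peak). A match describes the letters and is no evidence of binding.

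The windows below are shown because 4 of them hold TAATTA within the member, 1 holds the Ebf core, and that of Cnga4 lies entirely inside a member. They are from RefSeq, build GRCm38.p6 (mm10), written 5′ to 3′ along the gene's strand, with TAATTA or Ebf core matches in capitals. The window of Cnga4 holds neither.
Cnga4, chr7:105404318-105404617, plus strand: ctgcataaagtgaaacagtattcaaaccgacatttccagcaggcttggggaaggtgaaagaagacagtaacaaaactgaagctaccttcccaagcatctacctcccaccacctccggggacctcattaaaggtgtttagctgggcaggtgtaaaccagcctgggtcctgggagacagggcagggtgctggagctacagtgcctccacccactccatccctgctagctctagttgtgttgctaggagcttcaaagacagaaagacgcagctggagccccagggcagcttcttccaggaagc
Clip4, chr17:71769441-71769740, plus strand: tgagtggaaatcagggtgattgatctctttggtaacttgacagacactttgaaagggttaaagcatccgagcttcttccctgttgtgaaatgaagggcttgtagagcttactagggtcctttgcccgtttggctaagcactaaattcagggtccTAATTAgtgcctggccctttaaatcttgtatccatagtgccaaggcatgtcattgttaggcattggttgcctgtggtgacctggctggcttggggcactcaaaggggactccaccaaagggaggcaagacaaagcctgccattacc
Msx2, chr13:53472731-53473030, minus strand: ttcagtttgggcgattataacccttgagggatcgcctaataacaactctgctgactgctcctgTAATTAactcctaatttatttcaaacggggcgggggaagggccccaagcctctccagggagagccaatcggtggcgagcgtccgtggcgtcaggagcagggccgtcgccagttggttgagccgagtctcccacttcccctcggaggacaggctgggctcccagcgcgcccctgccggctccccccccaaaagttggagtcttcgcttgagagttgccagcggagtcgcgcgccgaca
Gm42094, chr11:113393980-113394279, plus strand: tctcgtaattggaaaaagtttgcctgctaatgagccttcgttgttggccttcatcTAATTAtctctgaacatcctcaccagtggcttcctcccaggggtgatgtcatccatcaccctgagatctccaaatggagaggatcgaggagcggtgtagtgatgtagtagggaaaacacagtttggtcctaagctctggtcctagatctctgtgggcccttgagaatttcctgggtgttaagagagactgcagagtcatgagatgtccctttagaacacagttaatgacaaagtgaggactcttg
Gm36427, chr13:101305839-101306138, minus strand: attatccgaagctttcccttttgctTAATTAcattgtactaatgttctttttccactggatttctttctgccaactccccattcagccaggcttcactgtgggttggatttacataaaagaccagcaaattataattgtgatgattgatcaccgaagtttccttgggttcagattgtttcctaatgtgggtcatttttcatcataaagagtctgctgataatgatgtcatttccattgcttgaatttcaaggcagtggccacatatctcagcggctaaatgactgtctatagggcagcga
A230083G16Rik, chr6:124916613-124916912, plus strand: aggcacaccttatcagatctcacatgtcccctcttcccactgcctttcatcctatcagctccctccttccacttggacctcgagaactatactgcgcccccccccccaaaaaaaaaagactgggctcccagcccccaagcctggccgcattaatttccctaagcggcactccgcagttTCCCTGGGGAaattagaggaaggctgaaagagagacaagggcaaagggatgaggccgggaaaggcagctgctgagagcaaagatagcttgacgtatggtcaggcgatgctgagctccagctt

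Gm42094 is a long noncoding RNA, and its window met the strongest member of these 6, with scores of 92 and 320 in the Olfr1507 lists and 302, 350 and 214 in the control lists. The score is the authors' own whole number per peak, whose scale between libraries is unknown, so it ranks peaks only within a list. Clip4, a gene for a CAP-Gly domain protein, had 39 and 178 in the Olfr1507 lists and 177, 228 and 103 in the control lists. Msx2, a homeobox gene, had 24 and 101 in the Olfr1507 lists and 168, 206 and 101 in the control lists. Cnga4 encodes a subunit of the cyclic nucleotide-gated channel of olfactory cilia, and its single control region was this member, with 35 and 217 in the Olfr1507 lists and 163, 219 and 110 in the control lists. Like every member, these 4 lay in the upper part of each control list and had no KO peak, as the rule required.

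The members ranked high in every control list, as the rule required. Their score percentile had a median of 94.7 in the first control list (range 88.3 to 99.9), 95.4 in the second (89.2 to 99.9) and 91.7 in control list 3 (79.7 to 99.9). All had a peak in all 3 lists, and the median gap between the percentiles of a region was 0.673 between the first and second lists, 2.39 between the first list and control list 3, and 3.18 between the second list and control list 3. In Olfr1507+ cells the spread was wider. The median percentile was 73.3 in the shorter first list (range 2.98 to 99.8) and 93.4 in the second (28.6 to 100.0), so the rule's demand for a peak there let in regions near the bottom of the first list.

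**Figure D1:**
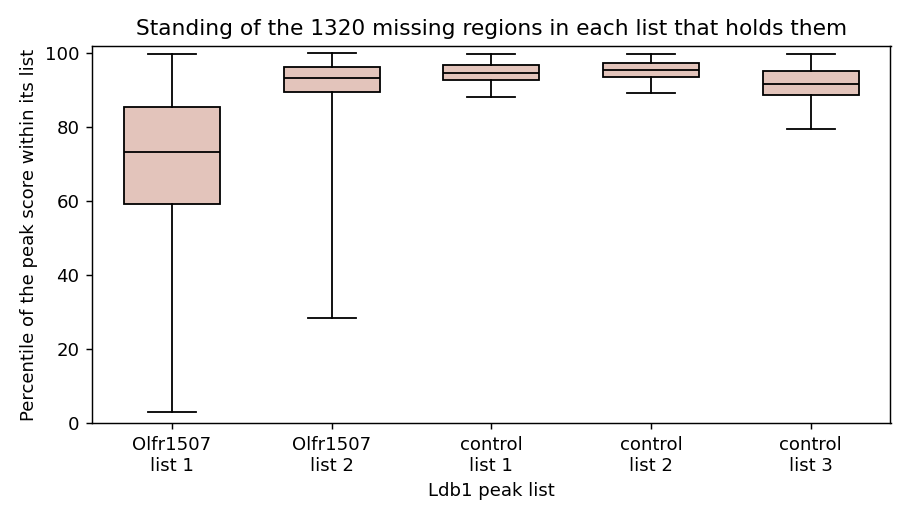
Percentile of the peak score within its own list (vertical axis) for the 1320 members in the 2 Olfr1507 and 3 control Ldb1 lists (horizontal axis). Boxes span the quartiles with the median as a line and whiskers reach the lowest and highest value; the members are tightly placed near the top of the control lists and spread widest in Olfr1507 list 1, where the median is 73.3.

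The lists were also compared after trimming them to the same number of peaks. Since the rule used these lists, the values for the members are a description and do not separate list length from binding. At 4290 peaks, the length of the first KO list, the highest peaks of the Olfr1507 lists still met 1296 (98.2%) and 1261 (95.5%) of the 1320 members, and each control list met all of them. The KO list of that length met 0 of the members, by the rule, and 820 of all regions in the highest 10% (36.0%), where the trimmed Olfr1507 lists met 2159 and 2146 (94.7% and 94.2%). At 542 peaks the Olfr1507 lists met 225 and 209 members (17.0% and 15.8%) and the control lists 197 to 205. The second KO list, of 542 peaks, was too short to hold all members, and without the first KO list the rule would have found 1853. Equal length does not make reads or enrichment equal.

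How often a strong region was a member varied with its rank. In the strongest of 10 equal rank bins 68 of 228 regions (29.8%) were members, in the second 39.0%, and in bins 6 to 10 the share was 66.2% to 72.4%. A KO peak was at 70.2% of the regions of the strongest bin and 25.6% of those of bin 10. In bin 10 a further 7.93% had no KO peak but lacked a peak in 1 or both Olfr1507 lists. The members ranked lower than the other strong regions, with a median mean percentile of 93.8 for the members and 96.5 for the 864 strong regions that had a KO peak in at least 1 list and a peak in both Olfr1507 lists. These 864 regions are the comparison set used below. The KO peaks of these regions had a median percentile of 68.2 in the first KO list (801 regions) and 58.1 in the second (331 regions). At 269 (33.6%) and 136 (41.1%) of them the peak scored at or below the median of its list.

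**Figure D2:**
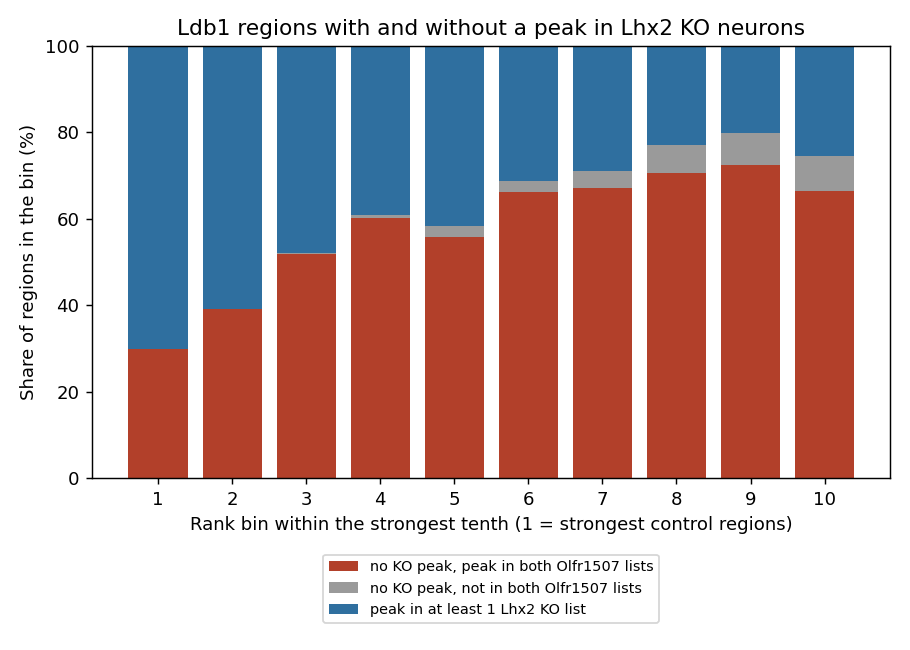
Share of the 2279 strongest control Ldb1 regions (vertical axis, percent) in each of 10 rank bins (horizontal axis, 1 is strongest) that had no KO peak and a peak in both Olfr1507 lists, no KO peak but not both Olfr1507 peaks, or a KO peak. Members make up 29.8% of the strongest bin and 66.5% of bin 10.

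The cut at the highest 10% fell within a continuum. Just inside it were a region in Cep83, with a mean percentile of 89.460, and one 65.6 kb from Arhgap24, with 89.456. Just outside were regions in Wdfy3 and Cnppd1, with 89.449 and 89.447, which met the other conditions.

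Few members lay close to a KO peak that just failed to overlap. A KO peak was within 1 kb of 36 members (2.73%), against 1.85% of all control regions without an overlapping KO peak, and within 10 kb of 165 (12.5%), against 10.4%. The median distance was 144 kb. At Sema6a, which encodes a transmembrane semaphorin of axon guidance, the nearest KO peak was 0.421 kb away. The member there scored 108 and 347 in the Olfr1507 lists and 438, 478 and 315 in the control lists. Another strong region next to it, 3.80 kb from the gene, held peaks in both KO lists.

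Rad21 was less often present at the members than at the strong regions with a KO peak, in both Rad21 libraries. These lists played no part in choosing the regions. In the first library 88 of 1320 members (6.67%, interval 5.44% to 8.14%) had a peak, against 196 of the 864 strong regions with a KO peak (22.7%). In the second library 550 members (41.7%, 39.0% to 44.3%) had one, against 66.2% (63.0% to 69.3%). The differences were -16.0 percentage points (95% interval -19.2 to -13.0) and -24.5 points (-28.6 to -20.3). Both shares of the members stood above those of all control regions, 4.32% and 23.3%, while all regions in the highest 10% had 12.7% and 50.2%. Without the first KO list the second difference was -14.9 points. No test over regions was made, since regions are not replicates, and the intervals cover counting error only.

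The lower Rad21 share was also seen between regions of like rank. In each of the 10 rank bins the members had the lower share in both libraries. Weighted to the members' spread over the bins, the regions with a KO peak had a Rad21 share of 19.4% in the first library and 65.2% in the second, and the differences were -12.7 and -23.6 points. In the strongest bin the second library came close, with 61.8% of members and 63.1% of regions with a KO peak, and in bin 10 it had 33.8% and 64.8%. Strong regions with a peak in both KO lists had 30.6% and 67.5% in the 2 libraries.

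**Figure D3:**
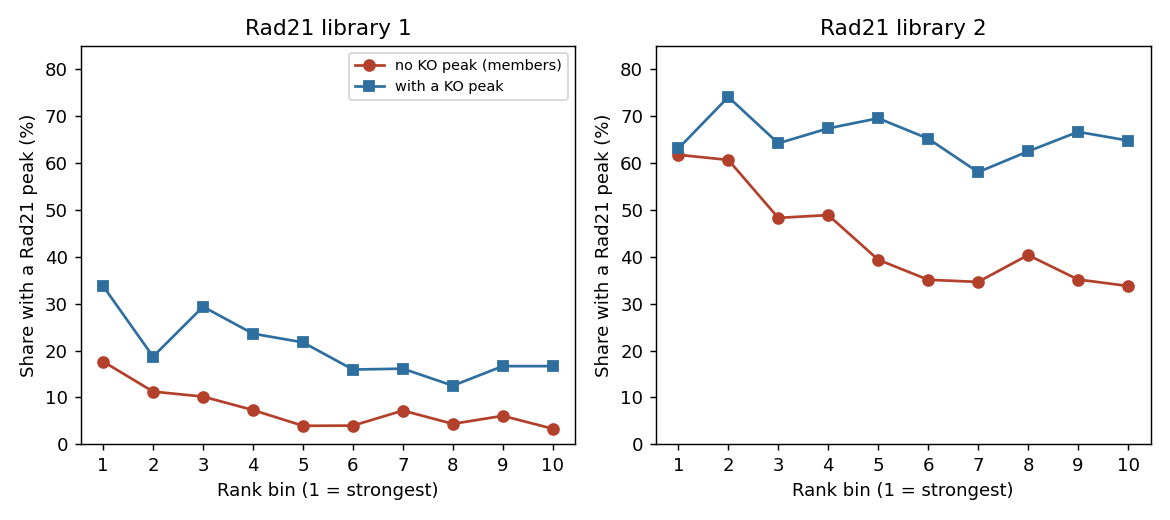
Share of regions with a Rad21 peak (vertical axis, percent) in each of 10 rank bins of the highest 10% (horizontal axis, 1 is strongest), for members and for strong regions with a KO peak, in Rad21 library 1 (left) and 2 (right). The members lie below in all 10 bins of both panels, with a gap of 61.8% against 63.1% in bin 1 of library 2.

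CTCF was scarce at both kinds of region. The first CTCF library had a peak at 51 members (3.86%), against 4.28% of strong regions with a KO peak (difference -0.419 points, interval -2.23 to 1.24). The second had one at 94 members (7.12%), against 12.6% (difference -5.49 points, interval -8.19 to -2.95). Without the first KO list this difference was -2.22 points (interval -6.26 to 1.05). These intervals too cover counting error only and are no test, since regions are not replicates. All control regions had 4.76% and 9.22%, and those in the highest 10% had 3.86% and 9.04%. A CTCF peak in at least 1 library was at 101 members (7.65%), against 9.56% of all control regions and 9.43% of the highest 10%. Of the members, 491 (37.2%) had a Rad21 peak in some library and no CTCF peak in either, 80 (6.06%) had both factors and 728 (55.2%) had neither. At strong regions with a KO peak 59.8%, 11.7% and 27.3% fell in these 3 classes. Between the factors, Rad21 libraries met 24.2% ± 24.7 of the members and CTCF libraries 5.49% ± 2.30 (SD, n = 2 each). The difference of 18.7 points was smaller than the spread between the Rad21 libraries (exact permutation test, two-sided p = 0.667, with 0.333 the smallest that 2 against 2 libraries allow). It was 1.17 points without the second Rad21 library and 36.2 without the first.

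**Figure D4:**
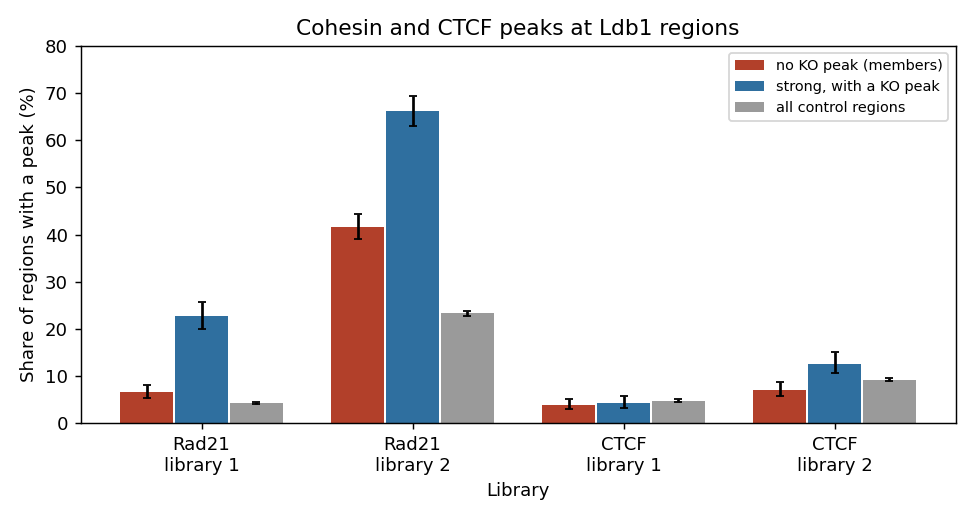
Share of regions with a peak (vertical axis, percent; bars with 95% Wilson intervals) of each Rad21 and CTCF library (horizontal axis) at the members, at strong regions with a KO peak and at all control regions. The members' bars are lower than those of regions with a KO peak for Rad21, at 6.67% against 22.7% and 41.7% against 66.2%, and nearly level for CTCF library 1.

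The share of members inside genes was near that of control regions in general. A gene body held 868 members (65.8%), near the 69.7% of all control regions, the 65.2% of the highest 10% and the 64.0% of strong regions with a KO peak. A protein-coding body held 756 (57.3%), against 62.5% of all control regions and 56.7% of the highest 10%. Within 1 kb of a gene end were 94 members (7.12%), against 10.3% of strong regions with a KO peak, 8.51% of the highest 10% and 15.7% of all control regions. The median distance to the nearest gene end was 13.5 kb, against 10.8 kb at strong regions with a KO peak. Exons and introns cannot be told apart with the annotation used here.

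The strongest members are named by the nearest protein-coding gene, which was often far away. The region with the highest rank among those given here was 11.7 kb from Efr3b, on chromosome 12 from 4050844 to 4051188, with 107 and 431 in the Olfr1507 lists and 456, 509 and 327 in the control lists. Apart from the member at Sema6a, those next in rank lay inside Cadps2, Herc3 and Fbxo16, or 3.55 kb from Tmem144, 6.58 kb from Med30, 12.1 kb from Stk38 and inside the long noncoding RNA Gm16196, 21.1 kb from Nek6, 28.3 kb from Ccdc90b and 69.6 kb from Ercc6l2. For Nek6 and Ercc6l2 a noncoding gene or pseudogene was nearer. Cadps2 encodes a protein that primes dense-core vesicles, Herc3 a ubiquitin ligase and Stk38 a kinase. None of the regions named for these 10 genes held a CTCF peak in either library. A peak of the second Rad21 library was at those of Efr3b, Ccdc90b, Nek6, Ercc6l2 and Cadps2, and a peak of the first only at that of Ccdc90b.

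Of the regulators, 3 of the Ebf genes, which encode helix-loop-helix factors of olfactory neurons, had the most members within 10 kb. They were Ebf1 with 7, Ebf2 with 4 and Ebf3 with 2, while Ebf4 had 0. Ebf1, a gene of 390 kb, had 7 strong regions within 10 kb and all 7 were members, more than at any other protein-coding gene. Of all regions in the highest 10%, 57.9% were members. Among the 81 genes with 3 or more strong regions, 7 (8.64%) had only members there and 6 had no member. The members at Ebf1 were spread over chromosome 11 from 44629480 to 45008681. The strongest, from 44792856 to 44793193, scored 57 and 237 in the Olfr1507 lists and 328, 379 and 166 in the control lists. Its neighbour, from 44794342 to 44794693, scored 91 and 316 in the Olfr1507 lists and 303, 330 and 185 in the control lists. The one beyond the gene, from 45008344 to 45008681, was the weakest, with 17 and 71 in the Olfr1507 lists and 143, 151 and 88 in the control lists. It alone of the 7 held peaks of both CTCF libraries. The first KO list did have peaks at 2 of the 26 control regions of Ebf1, neither of them in the highest 10%.

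The other Ebf genes were mixed. Ebf2 had 4 members among 6 strong regions, and the other two had peaks in the first KO list, with scores of 14 and 10. Ebf3 had 2 members among 5 strong regions. Its strongest region, on chromosome 7 from 137229854 to 137230211, had KO scores of 24 and 20, Olfr1507 scores of 118 and 395 and control scores of 488, 514 and 352, and so was no member. Of the remaining 2, 1 had peaks in both KO lists and 1 lacked a peak in the second Olfr1507 list. Ebf4 had 1 strong region, with a KO peak. Emx2, a homeobox gene, had 1 strong region 4.96 kb away, a member with 58 and 190 in the Olfr1507 lists and 359, 410 and 177 in the control lists. In all, 4 of the 22 regulators had a member within 10 kb (Ebf1, Ebf2, Ebf3 and Emx2), and 3.82% of all protein-coding genes did. Without the first KO list 8 did. A strong region with a KO peak was within 10 kb of 7 of the 22. Lhx2 and Ldb1 had no member, and the single strong region of each had a KO peak.

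**Figure D5:**
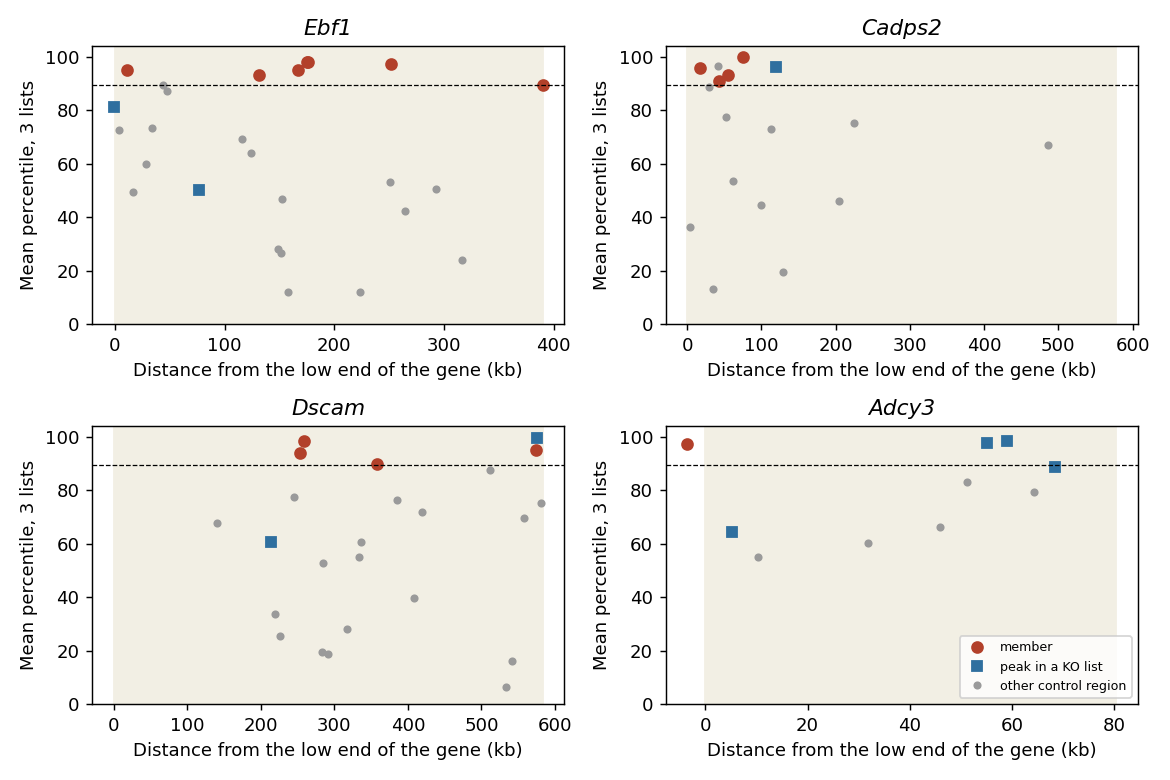
Mean score percentile over the 3 control lists (vertical axis) of every control Ldb1 region within 10 kb of Ebf1, Cadps2, Dscam and Adcy3, by distance from the low end of the gene in kb (horizontal axis, shaded gene body, dashed line at the lowest value of the highest 10%). All 7 Ebf1 regions above the line are members, while in the other panels regions with a KO peak stand beside members.

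Of 19 genes of olfactory transduction 8 had a member within 10 kb, with 9 members in all, against 3.82% of all protein-coding genes, and 8 had a strong region with a KO peak. Adcy3 encodes the cyclase that makes cyclic AMP in olfactory cilia, and 3 strong regions lay there. The member, 3.21 kb from the gene on chromosome 12 from 4129564 to 4129908, scored 55 and 261 in the Olfr1507 lists and 261, 315 and 172 in the control lists. The other two, inside the gene, had a peak in 1 KO list each, both scoring 13. Ric8b (an exchange factor for G-protein subunits), Reep1 (a membrane protein that aids receptor trafficking) and Stoml3 (a stomatin-like protein of cilia) had 1 member and 1 strong region with a KO peak each. Both strong regions of Omp had a peak in the first KO list, with scores of 14 and 17, as did the 3 of Gnal, the olfactory G-protein subunit, with 35, 16 and 10. The median score of that list is 11 and its highest is 51, so 4 of these 5 peaks scored above its median.

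Of 26 genes of axon guidance and adhesion 11 had a member within 10 kb, against 3.82% of all protein-coding genes. A strong region with a KO peak was within 10 kb of 10 of the 26. Dscam, a cell adhesion gene, had 4 members among 5 strong regions, and its strongest region held peaks in both KO lists. Efna5, an ephrin gene, had 2 members among 4, and Plxna4, a semaphorin coreceptor gene, had 1 among 4. Of 21 genes of synapse and vesicle release 7 had a member, against the same 3.82%, among them Cadps2 with 4, and Rims1 and Syt1, genes of the release machinery, with 1 each. A strong region with a KO peak was near 5 of the 21. Of 20 ion channel genes 5 had a member, against the same 3.82%, and 5 had a strong region with a KO peak. Without the first or the second control list 3 of the 20 had a member. Scn9a, a sodium channel gene that olfactory neurons use for transmitter release, had 2 strong regions, both members, the stronger with 95 and 329 in the Olfr1507 lists and 386, 443 and 256 in the control lists. Cacna1b, Cacna1e and Kcnh1 had 1 member each.

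Of 20 cilia genes 4 had a member (Foxj1, Ttc8, Rfx3 and Ift140), all of them in the weaker part of the set, with mean percentiles from 89.8 to 91.1. Without the first or the second control list, which makes the set smaller by construction, 0 of the 20 had one. Of 21 LIM-homeodomain genes and Ldb1 partners 1 did, Lhx4, and of 12 immature neuron genes 1 did, Ncam1, with 3 members among 4 strong regions. Without the first KO list 2 of the 12 did. No gene of the sustentacular and gland (10), basal and progenitor (9) or housekeeping (16) lists did, and none of these had a strong region within 10 kb. With 3.82% of all protein-coding genes near a member, these counts and that of the LIM-homeodomain list are near the background. For the LIM-homeodomain list the count was 3 without the first KO list and 0 without the first control list. A strong region with a KO peak was within 10 kb of 3 cilia genes, 2 of the LIM-homeodomain list and 3 immature neuron genes. For no list is the share of all protein-coding genes near such a region given here. The counts of genes near a KO-peak region therefore have no background, unlike the member counts. Gene length moves with these counts: the median length was 83.9 kb for the 832 protein-coding genes with a member and 17.2 kb for all 21757, and its part in the list counts was not tested. The list medians were 173 kb (ion channels), 149 kb (axon guidance), 114 kb (synapse) and 67.5 kb (transduction). They were 51.1 kb (immature neuron), 40.0 kb (cilia), 24.0 kb (LIM-homeodomain) and 23.5 kb (regulators). The lists with no member had 12.9 kb (basal), 7.23 kb (sustentacular) and 6.64 kb (housekeeping). At 133 of the 832 genes a strong region with a KO peak lay within 10 kb too.

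OR genes lie in clusters, and 9 members (0.682%) lay in the 43 clusters, defined with 100 kb flanks, against 0.733% of all control regions and 1.36% of the highest 10%. Without the flanks 0.227% of the members did. Of the 31 strong regions in clusters 29.0% were members (interval 16.1% to 46.6%), against 58.3% elsewhere, and 16 of the 31 (51.6%) had peaks in both KO lists, against 11.3% elsewhere. These shares were not matched for rank, with which the member share varied. The strongest of the 9 was 7.85 kb from Olfr139 on chromosome 11, with 52 and 256 in the Olfr1507 lists and 397, 446 and 261 in the control lists, and it held a peak of the first Rad21 library and none of the second. A member inside the annotated Olfr183 had 20 and 79 in the Olfr1507 lists and 245, 325 and 149 in the control lists. Others were 0.203 kb from Olfr278-ps1, 78.3 kb from the same pseudogene, 5.69 kb from Olfr433, 32.7 kb from Olfr1319-ps1, and 82.6 kb from Olfr220 inside Fmn2. The weakest of the 9 was 8.14 kb from Olfr1009. The Cnga4 member was 35.0 kb from Olfr692. Olfr1507 itself had no control region within 10 kb.

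Members were scattered. Another member was within 50 kb of 256 (19.4%), against 18.4% of strong regions with a KO peak, 19.4% of the highest 10% and 13.4% of all control regions. A strong region with a KO peak, counted here whatever its Olfr1507 peaks, was within 50 kb of 177 members (13.4%). The share was 18.4% for the comparison set, 15.6% for the highest 10% and 10.9% for all control regions. A weaker or strong control region of any kind was within 10 kb of 558 (42.3%), against 51.2% of strong regions with a KO peak, 46.1% of the highest 10% and 40.1% of all control regions. Linked at gaps of up to 50 kb, 1064 members stood alone, and there were 98 pairs, 16 runs of 3 and 3 runs of 4. The runs of 4 lay at Ebf1 (45.4 kb), Cadps2 (57.4 kb) and Dcdc2a (60.5 kb), a gene for a doublecortin-domain protein. The run at Dcdc2a began at 25037407 on chromosome 13, outside the gene, whose low end is at 25055273. Auts2, a long neuronal gene, had 6 members among 8 strong regions, spread out over the gene.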

How the data were processed

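Ldb1, Rad21 and CTCF ChIP-seq of sorted mouse olfactory neurons was used as 11 deposited peak lists, 1 per library, of the 28 samples of the series. RNA and input samples were not analysed here. The submitters' processing notes name cutadapt 1.9.1, Bowtie2 2.3.2, SAMtools 1.3.1, Picard, HOMER 4.7 and the build mm10, without their roles. The sources used here state no peak threshold and no control library. Peak scores are whole numbers in the authors' deposited lists and served only to rank peaks within a list. Replicates were not pooled in the deposited lists.

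Peaks off the main chromosomes were left out. The rest were linked where they overlapped by at least 1 base, and ties in score shared a percentile. Genes came from the RefSeq table of GRCm38.p6. The 388 genes whose coordinates ended below 3 Mb, mostly scaffold genes, were left out. An OR cluster holds 3 or more OR genes (pseudogenes counted) no further than 300 kb apart, plus 100 kb flanks. Promoter windows of RefSeq gave sequence for the chromosomes in that table, which is not complete. Shares carry 95% Wilson intervals, differences Newcombe intervals. The only test is an exact permutation over the 4 Rad21 and CTCF libraries. The labels do not say whether libraries came from separate animals, so its p reflects only how these libraries vary, possibly for technical reasons. The rule was checked on 2000 simulated regions, where it found all 105 planted members. Scores there followed the planted strength without noise, so this checks the code and not how the rule handles noisy peaks. Analyses used Python 3.11.15, pandas 2.3.3, NumPy 2.4.6 and SciPy 1.17.1. Alternatives covered the overlap rule, the cut, the ranking, list trimming, the clusters, the distance to genes and each library left out.

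Members, lists and tests were chosen with earlier results of these data known. Named items are the 12 strongest members, members in OR clusters (up to 8), up to 4 genes per list, the 5 genes with most members (ties by name), 6 genes always looked up (Lhx2, Ldb1, Omp, Adcy3, Ebf1 and Olfr1507) and the regions beside the cut. One of the 12 and 1 gene of a list are not reported here. Genes at promoter windows, Ebf4, Gnal, Gng13 and Cnga4 were named after their values were seen. One listed symbol was not found in the annotation.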

Additional observations from a re-analysis of the deposited data

How the results depend on the processing

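The number of members followed the cut and the lists. It was 538 for the highest 5% of control regions, 2536 for the highest 20% and 553 with the upper 50% of each control and Olfr1507 list, against 1320. Leaving out 1 library at a time gave 784 to 1853, the lowest without the second control library, 803 without the first control library, and the highest without the first KO library. With 1 control list left out, a region needed a peak in both that remained. Of the 22789 regions 15636 had a peak in control list 3, so leaving out the first or second list made the set smaller by construction. The share with a CTCF peak was 5.34% with reciprocal overlap of 50%, and 3.86% to 9.39% with 1 library left out, the lowest without the second CTCF library. The share with a peak of the first Rad21 library was 9.11% for the highest 5%, 4.77% for the highest 20%, 8.32% with trimmed lists and 6.45% to 10.6% with 1 library left out, the highest without the first KO library. For the second it was 39.0% with reciprocal overlap, 50.2%, 34.7% and 49.9% in that order of cuts and trimming, and 40.6% to 49.1% with 1 library left out.

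The lower Rad21 share of the members kept its direction under every alternative run. For the first library the difference was -12.3 points with reciprocal overlap, -12.7 weighted to the members' ranks (chosen after seeing the data), and -16.9 to -15.9 with 1 library left out. For the second it was -17.4 for the highest 5%, -29.0 for the highest 20%, -18.2 with trimmed lists and -25.5 to -14.9 with 1 library left out, the smallest without the first KO library. For the second CTCF library it was -5.83 to -2.22 points. Rad21 minus CTCF ranged from 1.17 to 36.2 points, the lowest without the second Rad21 library. The share near a gene end was 5.02% for the highest 5%, 5.61% with trimmed lists and 5.98% to 8.20% with 1 library left out. In OR clusters it was 0.227% without flanks and 0.651% to 0.809% with 1 library left out. The share with another member within 50 kb was 13.2% for the highest 5%, 29.9% for the highest 20%, 12.7% with trimmed lists and 15.6% to 26.3% with 1 library left out. Fewer or more regions in the set change that share by construction, and the cause of the shifts in the other shares was not tested. Gene bodies held 64.5% to 66.1% with 1 library left out. No paired analysis was possible because the replicate numbers of different groups mark no shared animal or batch in the labels and the shares come from no test. Unknown read depth limits what a missing peak can show.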

Other observations

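On the X chromosome 19 of the 24 strong regions were members (79.2%), and on chromosome 15 32 of 75 were (42.7%), the highest and lowest shares of any chromosome with a strong region. Other chromosomes ranged from 52.0% on chromosome 14 to 69.2% on chromosome 10. These shares were not tested. The 2 KO lists differed in where their peaks lay: of the 4290 peaks of the first KO list, 822 (19.2%) lay at a strong control region and 2890 (67.4%) at any control region, and of the 542 of the second list 336 (62.0%) and 494 (91.1%) did.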
